A study of Mus musculus with 4 samples.

Results

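Mouse myeloma cells that carried transcripts of mitotic genes were compared with myeloma cells from the same libraries that carried none. The cells come from single-cell RNA libraries of the VQ-D2 myeloma, a plasma cell cancer model that is passed from donor to recipient mice. The labels give the tumour cells as donor-derived, sorted as CD138+ B220- from recipients, on the background strain C57/BL6, with the genotype V{kappa}*MYC, Nras LSL Q61R/+ and IgG1-Cre and the disease state multiple myeloma. V{kappa}*MYC is a MYC transgene, the Nras allele is expressed only where Cre has removed its stop cassette, and IgG1-Cre is active in B cells that switch to that antibody class. There were 2 bone marrow libraries and 1 lymph node library of VQ cells, all of the 1 line VQ-D2, and 1 library of wild-type bone marrow plasma cells of the same strain and sort. Animal ages are not given in the labels, nor is whether the 2 bone marrow libraries came from different animals, so the spread between libraries may be technical.

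A cell was eligible when it held at least 2000 unique molecular identifiers (UMIs, each marking 1 captured transcript) and when Jchain, the joining chain of secreted antibody, made up under 5% of them. Each eligible cell was thinned at random to 2000 UMIs so that all cells had equal depth. The members were chosen by their UMIs of mitotic genes. A cell was called mitotic when the thinned UMIs held 2 or more of 12 genes, Ube2c, Cdk1, Birc5, Ccna2, Ccnb1, Ccnb2, Top2a, Mki67, Aurka, Aurkb, Plk1 and Cenpf, and non-mitotic when they held none. These are called the rule genes here. Of 781 cells in the series, 618 were VQ cells and 435 of those were eligible. The rule gave 257 mitotic cells, 88 non-mitotic cells and 90 cells with 1 rule gene, which belong to neither class. The word mitotic stands for this mark: several rule genes, among them Ccna2, Top2a and Mki67, are known to be transcribed from S phase on, so the class is not limited to cells in M phase.

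Entry into mitosis is driven by CDK1 bound to cyclin A or cyclin B. The anaphase-promoting complex (APC/C), with its coactivator CDC20 and the ubiquitin-conjugating enzyme UBE2C, then marks cyclin B and securin for destruction, while Aurora kinases and PLK1 steer spindle and chromosomes. Many genes of this phase are known to share a promoter layout in which CCAAT boxes, bound by NF-Y, stand near a CHR (cell cycle genes homology region), the element through which the DREAM and MuvB complexes act. Replication genes more often carry E2F sites and peak earlier, in late G1 and S phase. Plasma cells, in contrast, usually leave the cell cycle as they build up their secretory apparatus, and myeloma is the setting in which both programmes can be looked at in the same cells.

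Promoter sequences are shown for 2 rule genes and 3 genes outside the rule that were higher in the mitotic cells, because their windows hold the CCAAT and CHR letters named above. They come from RefSeq on the build GRCm38.p6, run 5′ to 3′ on the gene's strand from 150 bases before the annotated start to 20 bases after it, and have in capitals every CCAAT or its reverse complement ATTGG and every TTTGAA or TTTAAA on either strand (TTCAAA is the other strand's TTTGAA). Cdk1 (chr10:69352893-69353062, minus strand) is the kinase of mitotic entry, Ccnb2 (chr9:70421535-70421704, minus strand) a B-type cyclin, Cdc20 (chr4:118437324-118437493, minus strand) the APC/C coactivator, Cdca8 (chr4:124936898-124937067, minus strand) the chromosomal passenger protein Borealin, and Hmgb2 (chr8:57511693-57511862, plus strand) a chromatin protein that bends DNA.
Cdk1: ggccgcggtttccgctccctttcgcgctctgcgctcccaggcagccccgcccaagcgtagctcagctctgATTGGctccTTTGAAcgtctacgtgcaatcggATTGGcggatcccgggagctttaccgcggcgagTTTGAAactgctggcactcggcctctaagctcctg
Ccnb2: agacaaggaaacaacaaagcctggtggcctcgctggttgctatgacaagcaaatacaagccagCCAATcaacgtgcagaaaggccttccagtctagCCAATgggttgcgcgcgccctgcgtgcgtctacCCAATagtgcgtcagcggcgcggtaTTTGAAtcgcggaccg
Cdc20: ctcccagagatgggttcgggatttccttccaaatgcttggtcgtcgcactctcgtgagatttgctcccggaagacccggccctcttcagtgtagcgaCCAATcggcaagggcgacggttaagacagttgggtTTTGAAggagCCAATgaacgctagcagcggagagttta
Cdca8: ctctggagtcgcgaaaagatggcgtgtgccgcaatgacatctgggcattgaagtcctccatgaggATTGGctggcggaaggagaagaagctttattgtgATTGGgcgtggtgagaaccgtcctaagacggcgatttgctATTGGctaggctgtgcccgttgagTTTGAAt
Hmgb2: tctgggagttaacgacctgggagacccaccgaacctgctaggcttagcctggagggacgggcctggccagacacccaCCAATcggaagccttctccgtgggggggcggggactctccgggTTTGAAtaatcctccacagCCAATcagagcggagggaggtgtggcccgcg

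In Cdk1 the CCAAT boxes lie 32 bases apart, and in Ccnb2 the 3 boxes lie 33 and 33 bases apart. In Cdc20 the TTTGAA stands between the boxes, which are 45 bases apart, and in Hmgb2 it also stands between them, at a distance of 62 bases. Counted in the whole window of the table, 250 bases before to 50 after the start, 8 of the 10 rule genes that matched an entry (80%) had 2 or more CCAAT boxes together with TTTGAA or TTTAAA on either strand. Of all 27025 genes of the table, 3.62% had this combination, and of the 1747 tested genes with an entry, 3.89% had it. No entry was matched for Ccna2 and Aurkb. A match of letters describes the window and is not a measured binding site.

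The mitotic mark was met by most eligible VQ cells in each library. It was met by 113 of 180 cells in bone marrow replicate 1 (62.8%, exact Clopper-Pearson 95% interval 55.3 to 69.9%), by 66 of 109 in bone marrow replicate 2 (60.6%, 50.7 to 69.8%) and by 78 of 146 in the lymph node (53.4%, 45.0 to 61.7%). Non-mitotic cells made up 18.3%, 14.7% and 26.7% of the same libraries. These intervals overlap between all 3 libraries, and they cover counting error only. No cell held more than 7 of the 12 genes, and no cell barcode was shared between libraries. At 3000 UMIs per cell, with the 164, 73 and 119 cells that had so many, the shares were 73.2%, 82.2% and 68.1%, and the effect of depth was not separated from that of the smaller set of cells.

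**Figure D1:**
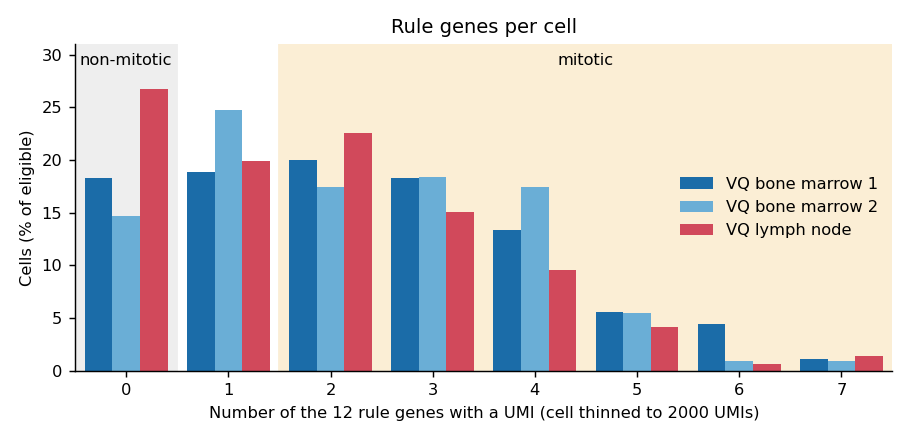
Share of eligible VQ cells (vertical axis, percent) by the number of the 12 rule genes with a UMI in the cell after thinning to 2000 UMIs (horizontal axis), 1 bar per library. Cells with none are the 88 non-mitotic cells, and cells with 2 to 7 are the 257 mitotic cells. The lymph node has the tallest bar at none (26.7%).

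In the wild-type library, 6 of 30 eligible cells met the mark (20%, interval 7.71 to 38.6%). Those 6 cells held 0 UMIs of Sdc1, the gene for CD138, and 1 UMI of Jchain in all, and each had a UMI of Dntt, Rag1, Vpreb1 or Igll1, genes of B cell precursors. Without the limit on Jchain, 6 of 83 wild-type cells met the mark (7.23%, interval 2.70 to 15.1%) and a further 6 held 1 rule gene. The marked wild-type cells thus held no Sdc1 UMI at this depth but held UMIs of precursor genes, and their share gives no background of the mark in plasma cells. The CD138 protein used for the sort is not measured in these counts.

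Among the rule genes, Ccna2 was seen most often. This description rests on the same UMIs that chose the cells, so no test is given. Ccna2, cyclin A2, had a UMI in 148 of the 257 mitotic cells (57.6%), with 58.4%, 56.1% and 57.7% in bone marrow 1, bone marrow 2 and lymph node. Top2a, the topoisomerase that untangles chromosomes, had one in 122 cells, and Birc5 (survivin, of the chromosomal passenger complex) in 93. Ube2c was seen in 88 cells, with shares of 38.9% in bone marrow 1, 37.9% in bone marrow 2 and 24.4% in lymph node cells. Cdk1 was seen in 77 cells, with shares of 34.5%, 31.8% and 21.8%. Mki67, the proliferation antigen Ki-67, was seen in 66 cells, at 30.1%, 30.3% and 15.4%. For Ube2c, Cdk1 and Mki67 the lymph node was thus the lowest library, though the exact intervals of the libraries overlap for each of the 3 genes (Ube2c 29.9 to 48.6% in bone marrow 1 against 15.3 to 35.4% in the lymph node). For Birc5 the lymph node was the highest, at 42.3% against 30.97% and 37.9%, as it was for Aurka (12.8% against 8.85% and 1.52%), Ccnb1 (24.4% against 23.01% and 19.7%) and Aurkb (29.5% against 27.4% and 28.8%). For Top2a it lay between the bone marrow libraries, at 51.3% against 40.7% and 54.5%. Aurkb was seen in 73 cells, Ccnb1 in 58, Ccnb2 in 53, Aurka in 21, Plk1 in 18 and the kinetochore gene Cenpf in 17. Ccna2 also led at the edge of the rule: it was the gene in 21 of the 90 cells with a single rule gene and was present in 36 of the cells with exactly 2, while Top2a was present in 14 and 24, Birc5 in 14 and 22, Ube2c in 6 and 17, and Aurka and Plk1 in none of the former and in 6 and 2 of the latter.

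The UMIs set aside by thinning gave a second reading of the same cells. In cells with at least 4000 UMIs, another 2000 UMIs were drawn from those not used by the rule. Of the mitotic cells, 69 of 86 in bone marrow 1 (80.2%), 23 of 26 in bone marrow 2 (88.5%) and 43 of 52 in the lymph node (82.7%) again held 2 or more rule genes. Of the non-mitotic cells, 5 of 23, 2 of 4 and 3 of 23 did (21.7%, 50% and 13.04%), and 10, 3 and 11 of them held at least 1. The non-mitotic class thus includes cells in which the mitotic genes were present but missed at 2000 UMIs.

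Both classes carried plasma cell markers, though not every marker was frequent. Xbp1, the transcription factor of the secretory programme, had a UMI in every mitotic and non-mitotic cell of the 3 libraries. Sdc1 had one in 70.8%, 78.8% and 69.2% of mitotic cells and in 60.6%, 68.8% and 61.5% of non-mitotic cells. Txndc5 had one in 91.2%, 95.5% and 93.6% against 93.9%, 93.8% and 97.4%. Irf4 was seen in fewer mitotic cells of each library (38.1%, 47.0% and 30.8% against 54.5%, 62.5% and 43.6%). So was Slamf7 (45.1%, 36.4% and 35.9% against 51.5%, 68.8% and 41.0%). Tnfrsf17 was seen in at most 13.6% of the cells of either class in any library. Markers of other types were near 0: of 10 T cell markers at most 2 had a UMI in any class of any library, and of 10 erythroid markers at most 1. B cell and precursor markers summed to between 0.667 and 1.27 UMIs per cell in both classes, with UMIs of at most 2 of the 13 genes in any class. They were lower in mitotic cells of each library (0.805, 0.667 and 0.962 against 1.27, 0.875 and 1.23 UMIs per cell), and the only gene of the list that could be tested, Cd79b, had a log2 difference of -0.53 and was not called. The part of this difference in the results was not tested. Monocyte and macrophage markers summed to between 0.141 and 0.381. Neutrophil markers stood out in 1 mitotic cell of bone marrow 1, which held 398 of the 402 UMIs of that list in its class. Without the cells that held 2 or more markers of another type, 25 genes were called higher and 22 lower in mitotic cells, against the 29 and 31 given further on.

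In each library the median mitotic cell had more UMIs and, at equal depth, more genes than the median non-mitotic cell. The median number of UMIs before thinning was 5406 in mitotic and 4819 in non-mitotic cells of bone marrow 1, 3778.5 and 2706 in bone marrow 2, and 5040 and 4517 in the lymph node. The mean log2 ratio of these medians was 0.27 (SD 0.18, n = 3 libraries), with the same direction in all 3 (exact two-sided sign-flip permutation test, p = 0.25, the smallest that 3 libraries allow). At 2000 UMIs per cell, the medians were 1223 genes against 1161, 1217.5 against 1141.5 and 1216 against 1145. The difference was 69.7 genes (SD 7.09, n = 3, exact permutation p = 0.25, again the smallest possible). Without the deepest 10% of cells, the lymph node median of UMIs was lower in mitotic cells (4373 against 4517). Fewer or more transcripts per cell and better or worse capture cannot be told apart from these counts.

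For the comparison of all other genes, thinned UMIs were summed over the cells of each class in each library, giving 6 sums, and tested with the library as a block. Levels are UMIs of the gene per 1000000 UMIs of the sum (CPM). In the non-mitotic sums of bone marrow 1, bone marrow 2 and lymph node, 1 UMI is 15.2, 31.3 and 12.8 CPM. Low values there rest on few UMIs. A gene was called when its Benjamini-Hochberg adjusted p in edgeR's quasi-likelihood test was under 0.05 and its direction was the same in all 3 libraries. All genes shared 1 spread trend in this test, so a gene's own spread between libraries did not enter its p or SE. Small p-values therefore do not measure how a gene varies between animals. Of 2135 genes tested outside the rule, 29 were called higher in mitotic cells (1.36% of the genes tested) and 31 lower (1.45%). The higher genes differed by 0.62 to 3.41 on the log2 scale (median 1.56), and the lower genes by -1.30 to -0.22 (median -0.47), while the median of all genes tested was -0.0042. The filter on low counts asked for 95.2 CPM in 3 of the 6 sums. Of the 29 higher genes, 11 reached this in the mitotic sums alone, so they could enter the test only by being higher there, and their entry is no support for a difference. Where an adjusted p is given below for these genes, it therefore comes from the fit without the filter. Their log2 fold changes and SEs stay those of the filtered fit. Of the other 18, only Ptma, H1f0, Tuba1b, Ranbp1, Tubb5 and Ssrp1 reached 95.2 CPM in all 3 non-mitotic sums. The rest, Hmgb2, Rrm2, Smc4 and Tipin among them, reached it in 1 or 2, so their entry also needed mitotic sums. Adjusted p-values of the rest come from the filtered fit and are limited support too. The unfiltered fit called 9 of the 11 and 12 of the other 18. Its values lay higher, with a median log2 difference of 0.19 over its 11176 genes, 23 genes called higher and 0 lower. Its p-values thus favour higher calls and are limited support. Of the 29 higher genes, 21 belong to the lists of cell cycle genes. No called lower gene does. Both numbers depend on single choices: with another random draw of the 2000 UMIs 16 genes were called higher and 19 lower, and DESeq2 called 2 and 1. With library totals in place of TMM scaling 30 genes were called higher and 21 lower. Leaving out bone marrow 1, bone marrow 2 or the lymph node gave 10, 2 and 14 higher genes and 10, 2 and 3 lower genes, of 2257, 2553 and 2150 tested. Tubb5, Hmgb2 and Ly6c2 were called in each of these 3 fits and with DESeq2, and all 3 also with the other draw.

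**Figure D2:**
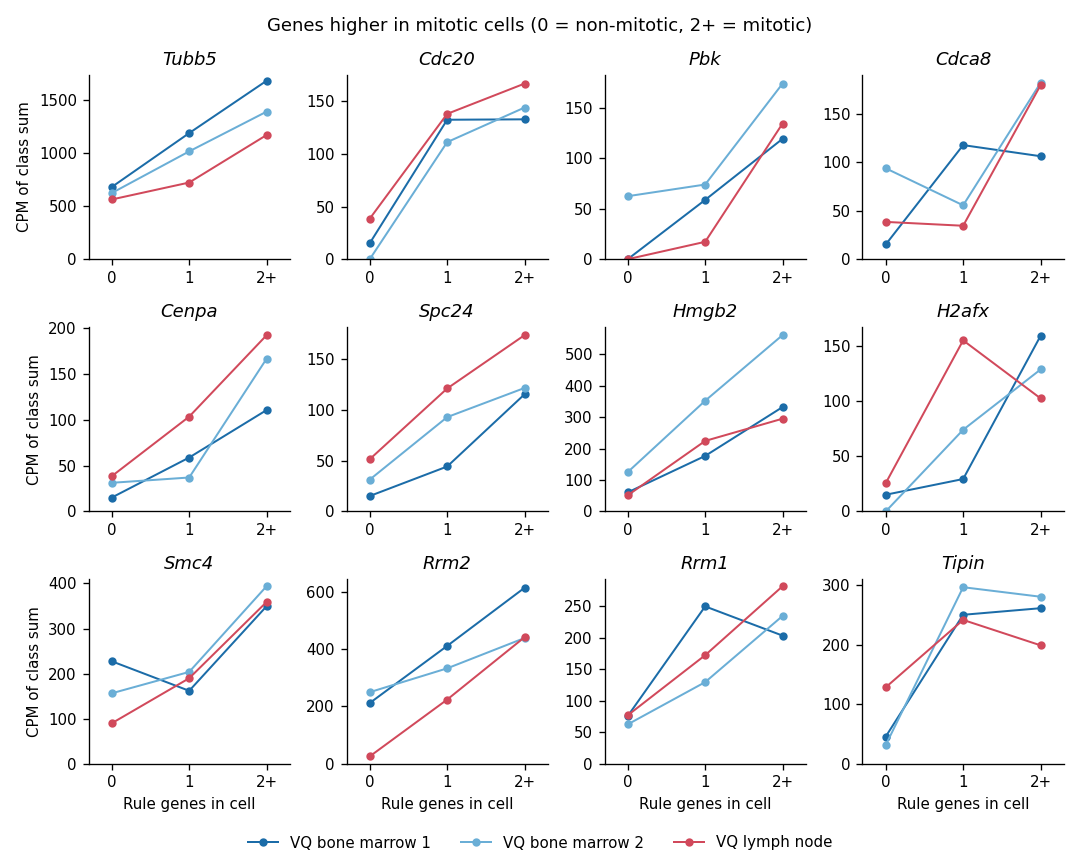
Levels of 12 genes called higher in mitotic cells (vertical axes, CPM of the summed thinned UMIs) in cells with 0, 1 and 2 or more rule genes (horizontal axes), 1 line per VQ library. In each of the 12 panels all 3 lines are higher at 2 or more than at 0; Tubb5 goes from between 564 and 682 CPM to between 1173 and 1686 CPM.

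The tubulin genes Tubb5 and Tuba1b rose in the mitotic cells. Tubb5 (chr17:35833921-35838306 in GENCODE vM21 on GRCm38), a beta-tubulin of the spindle, was at 1686, 1394 and 1173 CPM in the mitotic cells of bone marrow 1, bone marrow 2 and lymph node and at 682, 625 and 564 CPM in the non-mitotic cells. The mitotic values all lie above the non-mitotic ones, and the log2 fold change was 1.15 (SE 0.14, adjusted p = 4.46e-12). Cells with 1 rule gene lay between the classes in each library, at 1191, 1019 and 724 CPM. Tuba1b, an alpha-tubulin, was at 810, 485 and 590 CPM against 318, 344 and 231 CPM, a log2 fold change of 1.14 (SE 0.21, adjusted p = 3.10e-05). Tubulin genes have near-identical relatives, so reads may be split between them. Of the 40 measured genes of the spindle and cytokinesis list, 8 passed the filter on low counts. Of those, these 2 were called higher and none lower, with a median log2 difference of 0.78 over the 8. All 8 reached the filter's level in at least 1 non-mitotic sum. The rest of the list was not testable at this depth. Knstrn, a spindle and kinetochore adaptor named after its values were seen, had an adjusted p of 0.0411 but was at 114 CPM in mitotic and 125 CPM in non-mitotic cells of bone marrow 2, and so was not called.

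Among regulators of mitotic exit and mitotic kinases, Cdc20, Pbk and Cdca8 were called higher. Cdc20, whose promoter is printed above, was at 133, 144 and 167 CPM in mitotic cells and at 15.2, 0 and 38.5 CPM in non-mitotic cells (75 UMIs against 4). Per cell this is a ratio of 6.42 with an exact 95% counting interval of 2.41 to 24.2. The fitted log2 fold change was 2.65 (SE 0.59, adjusted p without the filter 0.00232). This interval and those given below for other genes cover counting error of pooled UMIs only, not spread between cells or libraries. All genes given one passed the filter through the mitotic sums alone, so the intervals are no support for a difference. Pbk, a kinase active in mitosis, had 71 UMIs in mitotic and 2 in non-mitotic cells, a ratio of 12.2 per cell (interval 3.24 to 102), and 0 UMIs in the non-mitotic cells of bone marrow 1 and lymph node. Its fitted log2 fold change was 3.41 (SE 0.73; adjusted p without the filter 0.000493). Cdca8 was at 106, 182 and 179 CPM against 15.2, 93.8 and 38.5 CPM (76 UMIs against 7). Its log2 fold change was 1.86 (SE 0.51, adjusted p without the filter 0.0412). In this gene the mitotic cells of bone marrow 1 and the non-mitotic cells of bone marrow 2 lie close together, and the groups separate within libraries. Of 42 measured genes of the APC/C, checkpoint and mitotic kinase list, 12 passed the filter, 3 were called higher (these 3) and none lower. Of the 12, 7 passed through the mitotic sums alone, the 3 called genes among them, and the median log2 difference of the other 5 was 0.50.

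At the centromere, Cenpa and Spc24 were called. Cenpa, the histone H3 variant that marks centromeres, was at 111, 167 and 192 CPM in mitotic and at 15.2, 31.3 and 38.5 CPM in non-mitotic cells, with no overlap (77 UMIs against 5, ratio per cell 5.27, interval 2.16 to 16.7). The log2 fold change was 2.39 (SE 0.55; adjusted p without the filter 0.00398). Spc24, a subunit of the NDC80 complex that holds microtubules at the kinetochore, was at 115, 121 and 173 CPM against 15.2, 31.3 and 51.3 CPM. Those non-mitotic values stand for 1, 1 and 4 UMIs. The log2 fold change of Spc24 was 2.00 (SE 0.56, adjusted p without the filter 0.0427). Spc24 was not called with the other draw of UMIs, where its log2 fold change was 1.26. Of 36 measured centromere and kinetochore genes, 6 passed the filter, 2 were called higher and none lower. These 2 passed through the mitotic sums alone, and the median log2 difference of the other 4 was 0.57.

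Chromatin and chromosome condensation genes gave 7 of the 29 higher calls, as many as the replication list. Hmgb2 (chr8:57511907-57515999) was at 332, 561 and 295 CPM in mitotic cells and at 60.6, 125 and 51.3 CPM in non-mitotic cells, with no overlap. The log2 fold change was 2.34 (SE 0.34, adjusted p = 3.97e-09). Bone marrow 2 was the highest library in both classes. H2afx, the H2A variant that is phosphorylated at DNA breaks, had 69 UMIs against 3, a ratio per cell of 7.88 (interval 2.58 to 39.1), and a fitted log2 fold change of 2.82 (SE 0.68; adjusted p without the filter 0.00398). The condensin subunit Smc2 was at 137, 159 and 109 CPM against 30.3, 31.3 and 25.6 CPM (69 UMIs against 5). Its log2 fold change was 2.11 (SE 0.59, adjusted p without the filter 0.0412), and Smc2 was not called with the other draw (1.54). The condensin subunit Smc4 was at 350, 394 and 359 CPM against 227, 156 and 89.7 CPM, a log2 fold change of 1.18 (SE 0.27, adjusted p = 0.00233). Of 40 measured genes of this list, 25 passed the filter and 7 were called higher. The others of the 7 were the linker histone gene H1f0 (log2 fold change 0.83), Ranbp1 of the Ran system (0.93) and the cohesin subunit Rad21 (1.19). Ranbp1 and Rad21 were not called in the fit without the filter. None of the 25 was called lower. Of the 25, 4 passed through the mitotic sums alone, H2afx and Smc2 among them, and the median log2 difference of the other 21 was 0.71.

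Enzymes of nucleotide supply and of the replication fork were among the higher genes. Of 71 measured replication and S phase genes, 26 passed the filter, 7 were called higher and none lower. Of the 26, 10 passed through the mitotic sums alone, and of the other 16, 4 were called higher, with a median log2 difference of 0.59. The ribonucleotide reductase subunit Rrm2 (chr12:24708241-24714146) was at 615, 439 and 442 CPM in mitotic and at 212, 250 and 25.6 CPM in non-mitotic cells, a log2 fold change of 1.82 (SE 0.27, adjusted p = 1.50e-08). The lymph node had the lowest non-mitotic level by far, and without it the log2 fold change was 1.26. Its partner Rrm1 was at 204, 235 and 282 CPM against 75.8, 62.5 and 76.9 CPM, a log2 fold change of 1.67 (SE 0.36; adjusted p without the filter 0.00294), and did not pass with the other draw (1.05, adjusted p = 0.0555). Topbp1, which activates the ATR kinase, and the flap endonuclease gene Fen1 had log2 fold changes of 1.48 and 1.10. Neither was called with the other draw.

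The replication fork gene Tipin shows how far a call can rest on 1 draw of UMIs. It was at 261, 280 and 199 CPM in mitotic and at 45.5, 31.3 and 128 CPM in non-mitotic cells, a log2 fold change of 1.56 (SE 0.35, adjusted p = 0.00165). With another draw the log2 fold change was 0.29 (adjusted p = 0.768), and in the UMIs set aside it was 0.0037 (adjusted p = 0.996). Of the 29 higher genes, Tipin included, 28 kept their sign in all alternatives they were tested in, the exception being Copg1 (named after its values were seen) in the set-aside UMIs. Of the 31 lower genes, 24 did. Of the 29, 16 passed the filter in the set-aside UMIs and 15 of those had the same sign, but only 2, Tubb5 and Hmgb2, were still called. A kept sign is weak evidence, since it counts values as near 0 as that of Tipin. The share of all genes tested that kept their sign was not counted.

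Outside the cell cycle lists, 8 genes were called higher. The PCNA-associated factor 2810417H13Rik, now Pclaf, was at 226, 295 and 321 CPM in mitotic and at 60.6, 62.5 and 128 CPM in non-mitotic cells, a log2 fold change of 1.59 (SE 0.33, adjusted p = 0.000377). Tmem97, the sigma-2 receptor, was at 155, 136 and 160 CPM against 15.2, 0 and 103 CPM, a log2 fold change of 1.59 (SE 0.47, adjusted p = 0.0321), with the lymph node difference the smallest of the 3. The mitochondrial ribosomal gene Mrpl12 was called at 0.90 (SE 0.28, adjusted p = 0.0414), the sole call among 41 tested of 77 measured genes of its list, whose median was -0.01. The other 5, named here after their values were seen, were the RNA helicase gene Ddx39 (1.30), the actin-nucleating Arpc1b (1.41), the vesicle coat gene Copg1 (1.27), prothymosin Ptma (0.62) and the histone chaperone subunit Ssrp1 (0.80), all log2 fold changes. Arpc1b passed the filter through the mitotic sums alone and was not called in the fit without the filter. Tmem97, Mrpl12, Copg1 and Ssrp1 were not called in that fit either. Of the alternatives that tested them, Tmem97 was called in 5 of 13 and Mrpl12 in 3 of 16.

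Summed over whole lists, transcripts of mitosis, chromatin and replication genes were fewer in non-mitotic cells of each library, a description since the tested genes are part of these sums. None of the lists holds a rule gene. The APC/C, checkpoint and kinase list held 6.61, 6.85 and 6.96 UMIs per mitotic cell and 3.64, 4.63 and 2.95 per non-mitotic cell. The chromatin list held 17.1, 18.0 and 14.9 UMIs against 10.5, 9.13 and 8.90. The replication list held 15.7, 15.5 and 14.7 UMIs against 9.09, 8.94 and 6.87. Spindle genes held 10.4, 8.39 and 8.68 UMIs against 4.55, 4.63 and 3.77. The list of G1 cyclins, CDKs and inhibitors did not follow: it held 3.36, 3.92 and 4.35 UMIs per mitotic cell against 3.70, 4.5 and 3.74. Replication-dependent histone genes, whose transcripts mostly lack poly(A) tails, held 0.779, 1.00 and 0.590 UMIs against 0.333, 0.563 and 0.256, and none of the 64 measured genes passed the filter.

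**Figure D3:**
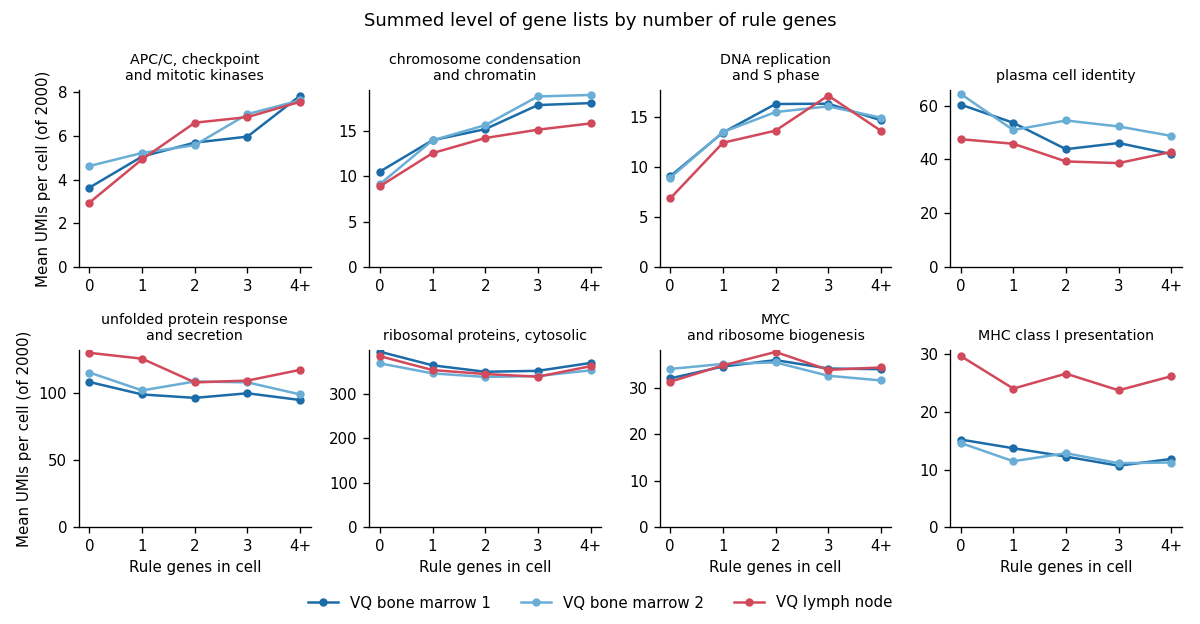
Mean UMIs per cell, of 2000, of 8 gene lists (vertical axes) in cells with 0, 1, 2, 3 and 4 or more rule genes (horizontal axes), 1 line per VQ library. The 3 cell cycle lists in the top row are lowest at 0 (the replication list between 6.87 and 9.09 UMIs); plasma cell identity, secretion, ribosomal protein and MHC class I levels are highest at 0, while the MYC list shows no such order.

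Of the 31 genes lower in mitotic cells, 7 encode cytosolic ribosomal proteins, 4 are plasma cell identity genes, 3 belong to secretion, 3 to MHC class I presentation and 1 to the interferon response, and 13 are in no list. With the other draw of UMIs, 9 of the 31 were called again: Ly6c2, B2m, Ly6e, Pou2af1, Rpl13a, H2-K1, Entpd1, Ppib and Rps24, the last outside the rule for named genes. Because every cell holds 2000 UMIs, a larger share for one set of genes leaves a smaller share for the rest, and these values are shares of a cell's transcripts. Of 17 tested plasma cell identity genes (30 measured), 4 were called lower and none higher, with a median log2 difference of -0.17. Ly6c2 (chr15:75108158-75111970), a Ly6 family surface antigen, was at 5673, 7841 and 2680 CPM in mitotic and at 8152, 9875 and 3667 CPM in non-mitotic cells. It was lower in mitotic cells within each library, although libraries differed more than classes did, and the log2 fold change was -0.47 (SE 0.07, adjusted p = 2.03e-09). Without the library block its adjusted p was 0.534. Ly6k, of the same family, was at 186, 212 and 276 CPM against 288, 500 and 500 CPM, a log2 fold change of -0.90 (SE 0.23, adjusted p = 0.00577), and the classes did not overlap. Pou2af1, the B cell coactivator OCA-B, was at 774, 1076 and 949 CPM against 879, 1531 and 1526 CPM, a log2 fold change of -0.51 (SE 0.13, adjusted p = 0.00689). Jchain was at 5363, 5508 and 5282 CPM against 6591, 7406 and 6180 CPM, a log2 fold change of -0.34 (SE 0.07, adjusted p = 0.000112), though this gene also took part in the choice of eligible cells. Without the Jchain limit, 29 genes were called higher and 26 lower.

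**Figure D4:**
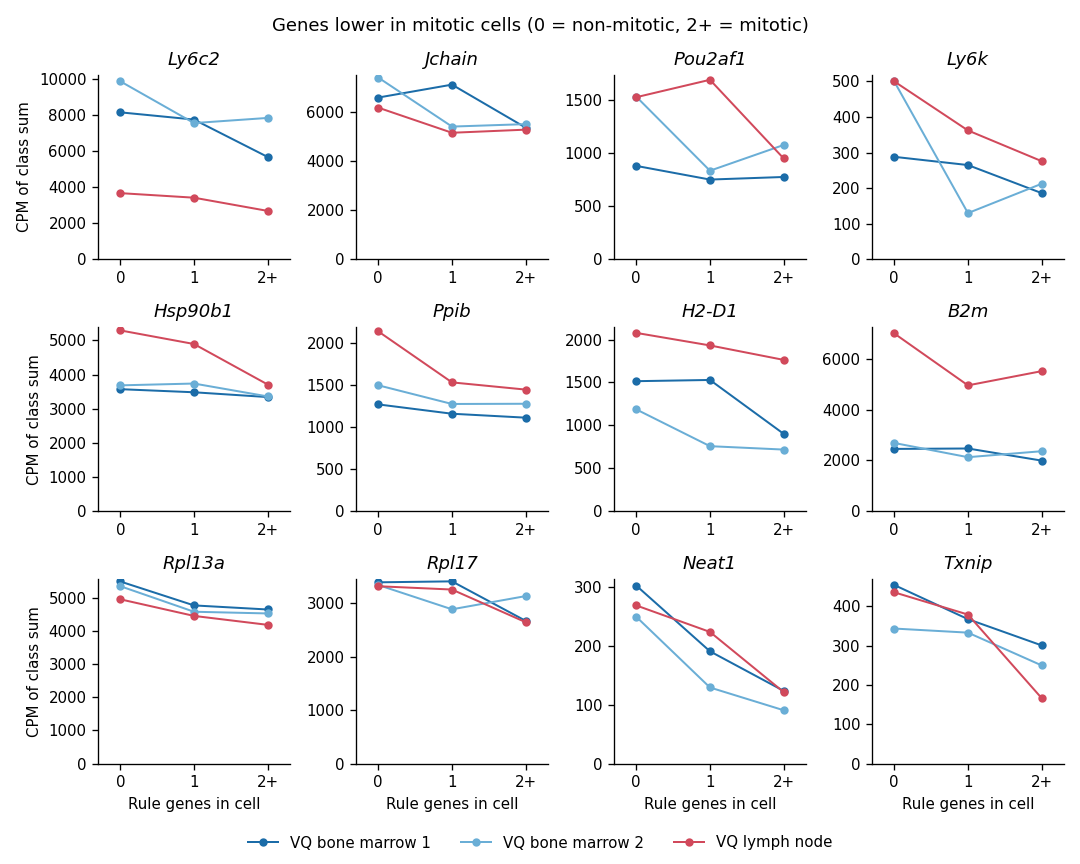
Levels of 12 genes called lower in mitotic cells (vertical axes, CPM of the summed thinned UMIs) in cells with 0, 1 and 2 or more rule genes (horizontal axes), 1 line per VQ library. Each line is lower at 2 or more than at 0, and for Ly6c2, B2m and H2-D1 the libraries lie further apart than the classes.

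The core regulators of the plasma cell did not pass the test. Sdc1 was at 717, 644 and 577 CPM in mitotic and at 742, 750 and 603 CPM in non-mitotic cells (log2 fold change -0.13, SE 0.17, adjusted p = 0.821). Xbp1 was at 4040, 4712 and 3327 CPM against 4364, 5156 and 3256 CPM (-0.10, SE 0.08, adjusted p = 0.592). Irf4 was at 332, 432 and 186 CPM against 348, 500 and 385 CPM (-0.45, SE 0.22, adjusted p = 0.280). Prdm1 (Blimp-1), at 79.6, 37.9 and 96.2 CPM against 45.5, 93.8 and 115 CPM, did not pass the filter, nor did Mzb1, which was at 1128 CPM in mitotic and 1487 CPM in non-mitotic cells of the lymph node and at no more than 93.8 CPM in any class of either bone marrow library.

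Most genes of the endoplasmic reticulum had small negative differences. The list for the unfolded protein response and for secretion had 55 measured genes. Of its 51 tested genes, 45 had a negative log2 difference, 3 were called lower and none higher, and the median was -0.22. The chaperone Hsp90b1 (GRP94) was at 3345, 3364 and 3712 CPM against 3576, 3688 and 5295 CPM, a log2 fold change of -0.31 (SE 0.08, adjusted p = 0.00535), and without the lymph node it was -0.13 (adjusted p = 0.736). The cyclophilin gene Ppib was at 1115, 1280 and 1449 CPM against 1273, 1500 and 2141 CPM, a log2 fold change of -0.40 (SE 0.11, adjusted p = 0.0193). Edem1, which directs misfolded glycoproteins to degradation, was at 3947, 4477 and 3000 CPM against 5000, 5063 and 3192 CPM, a log2 fold change of -0.25 (SE 0.08, adjusted p = 0.0411). Further called genes of the secretory route that are in no list were Fkbp2, a prolyl isomerase of the endoplasmic reticulum (log2 fold change -0.65), Selm, a selenoprotein of that compartment (-0.75), the collagen lysyl hydroxylase Plod3 (-1.23) and the secreted protease inhibitor Cst3 (-0.53). Plod3 had the second largest negative value of the called genes but was not called in any of the 13 alternatives that tested it.

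The called antigen presentation genes were lower in mitotic cells of each library and had their highest levels in the lymph node in both classes. Of 11 tested MHC class I genes (19 measured), 3 were called lower and none higher, with a median of -0.21. H2-D1 was at 903, 720 and 1763 CPM in mitotic and at 1515, 1188 and 2077 CPM in non-mitotic cells, a log2 fold change of -0.53 (SE 0.12, adjusted p = 0.00128). B2m, the light chain of class I molecules, was at 1996, 2364 and 5506 CPM against 2455, 2688 and 6987 CPM, a log2 fold change of -0.34 (SE 0.08, adjusted p = 0.00317). H2-K1 was at 1102, 1076 and 2776 CPM against 1485, 1594 and 3269 CPM (-0.38, SE 0.10, adjusted p = 0.0125). H2-D1 and H2-K1 are near-identical in part, so their reads may be split between them. Of 6 tested interferon response genes, Ly6e was called lower (-0.38, adjusted p = 0.00577).

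Nearly all cytosolic ribosomal protein genes had small negative differences. Of 77 tested (85 measured), 74 had a negative log2 difference, with a median of -0.17, 7 were called lower and none higher. Rpl13a was at 4642, 4523 and 4180 CPM in mitotic and at 5485, 5344 and 4949 CPM in non-mitotic cells, a log2 fold change of -0.28 (SE 0.07, adjusted p = 0.00886), with no overlap. Rpl17 was at 2673, 3136 and 2647 CPM against 3394, 3344 and 3321 CPM (-0.31, SE 0.08, adjusted p = 0.0127), also with no overlap. Summed, the list held 17.9%, 17.2% and 17.4% of the UMIs of mitotic cells and 19.7%, 18.4% and 19.2% of those of non-mitotic cells. Ribosomal protein genes have many processed copies in the genome, so single members are uncertain. With no filter on low counts no gene was called lower, and the median of all genes tested moved to 0.19, which is larger than the ribosomal difference.

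Other lower genes belong to no list. Neat1 (chr19:5824708-5845478), the long noncoding RNA that builds nuclear paraspeckles, was at 124, 90.9 and 122 CPM in mitotic and at 303, 250 and 269 CPM in non-mitotic cells, with no overlap. The log2 fold change was -1.30 (SE 0.30, adjusted p = 0.00235), and with the other draw it was -1.03 (adjusted p = 0.132). Txnip, an inhibitor of thioredoxin and glucose uptake, was at 301, 250 and 167 CPM against 455, 344 and 436 CPM (log2 fold change -0.87, SE 0.22, adjusted p = 0.00828), but was at 0.29 in the set-aside UMIs. Entpd1, the ectonucleotidase CD39, was at 305, 235 and 160 CPM against 424, 375 and 410 CPM (-0.84, SE 0.22, adjusted p = 0.0127). Serglycin, Srgn, was at 133, 205 and 353 CPM against 333, 219 and 603 CPM (-0.86, adjusted p = 0.00941). Cyp2b10, a drug-metabolising cytochrome P450, was at 155, 114 and 154 CPM against 167, 313 and 372 CPM (-0.95, adjusted p = 0.0292), with almost no difference in bone marrow 1. The initiation factor Eif1a (-0.91), the exonuclease Isg20 (-0.82) and annexin Anxa5 (-0.77) completed the 15 largest differences. Cd52 and Grn, named after their values were seen, had adjusted p under the threshold but opposite directions between libraries: Cd52 was at 482, 545 and 218 CPM against 1046, 406 and 833 CPM, and Grn at 442, 280 and 282 CPM against 394, 719 and 603 CPM.

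Neither Myc nor Nras was called. Myc was at 1181, 1568 and 1282 CPM in mitotic and at 1227, 1750 and 1321 CPM in non-mitotic cells, a log2 fold change of -0.11 (SE 0.12, adjusted p = 0.763). The transgene and the mouse gene are not told apart in these counts. Of 39 tested MYC and ribosome biogenesis genes (60 measured) none was called, and their median was -0.01. Nras was at 301, 394 and 314 CPM against 227, 188 and 218 CPM, with every mitotic value above every non-mitotic one but not past the test (log2 fold change 0.55, SE 0.25, adjusted p = 0.2495). Of 5 tested RAS and MAPK output genes none was called, with a median of 0.41. None was called either among the tested members of the lists for G1 cyclins and CDKs (4, median -0.21), cell cycle transcription factors (2, median 0.61), the integrated stress response (16, median -0.03), immediate early and heat shock genes (15, median 0.08), glycolysis (11, median -0.06), apoptosis and p53 (7, median -0.04) and the proteasome (31, median 0.07). A list without a call is not shown to be equal in both classes.

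The motif letters of the printed promoters were counted in the called genes as well. Of the 29 higher genes, 20 matched a promoter entry. Of these, 6 (30%) had 2 or more CCAAT boxes with TTTGAA or TTTAAA, and 9 (45%) had TTTGAA. Cdc20, Cenpa and Cdca8, among both the 6 and the 9, and Smc2, among the 9, passed the low-count filter through the mitotic sums alone. These shares therefore rest in part on genes that could enter the test only by being higher in mitotic cells. Hmgb2, 2810417H13Rik and Tmem97, the others of the 6, reached the filter's level in 1 non-mitotic sum, so their entry needed mitotic sums too. Of the 24 matched lower genes, 1 (4.17%) had the combination and 4 (16.7%) had TTTGAA, against 3.89% and 13.1% of the 1747 matched genes tested. CCAAT boxes alone were about as frequent in both directions: 40% of higher and 41.7% of lower genes had 2 or more, against 18.8% of the genes tested. E2F letters, TTTCCCGC or TTTGGCGC on either strand, stood in 17 of 56 matched genes of the replication list (30.4%), in 3 of the 20 higher genes (15%), in none of the 10 matched rule genes, in 4.69% of the matched genes tested and in 1.80% of all genes of the table. Higher genes with no entry include Pbk, Tipin, Smc4, H2afx, Ddx39, Spc24 and Rad21.

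**Figure D5:**
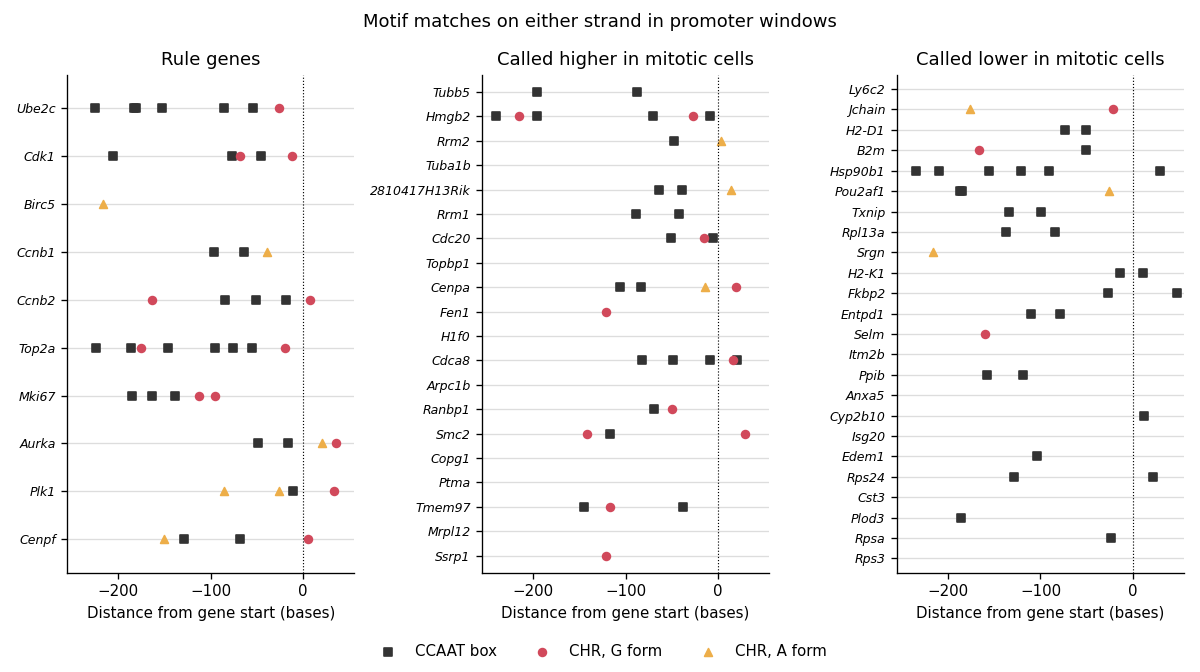
Positions of CCAAT boxes (squares), TTTGAA (circles, CHR G form) and TTTAAA (triangles, CHR A form) on either strand, in bases from the annotated start (horizontal axis), in the matched promoters of 10 rule genes, 20 genes called higher and 24 genes called lower. In rule genes such as Cdk1, Ccnb2 and Top2a the circle nearest the start stands with squares just before it; among lower genes most have squares or no mark.

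The effect of the mark was not shown to differ between lymph node and bone marrow. A test of the difference between the lymph node's effect and that of the bone marrow pair called 0 of 2135 genes (0.0%; edgeR quasi-likelihood test, smallest adjusted p = 0.453), with 84 at an unadjusted p under 0.05. It has 1 residual degree of freedom and 1 lymph node library. Without the filter on low counts 1 gene was called, Plac8, named after its values were seen, with 33 UMIs in mitotic and 7 in non-mitotic lymph node cells, against 3 and 16 in bone marrow 1 and 2 and 1 in bone marrow 2 (log2 difference 4.59, adjusted p = 0.0136).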

How the data were processed

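Per the labels, cells were isolated on the Bio-Rad ddSEQ instrument and libraries made with Illumina's SureCell WTA kit, which reads transcript 3′ ends. The authors deposited raw UMI counts per gene and cell (24421 gene columns) with no scaling, and mm10 is the build that the submitters' processing notes name. The aligner is not given in the sources used here. Library totals were 340253 (wild type), 1066884, 457158 (VQ bone marrow) and 803752 UMIs (lymph node). No doublet caller was run.

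Cells were thinned without replacement (seed 1) with numpy 2.4.6. Class sums were tested with edgeR 4.0.16 in R 4.3.3 (TMM, filterByExpr by class, library and class as terms, 2 residual degrees of freedom). The common coefficient of variation was 0.0452, and all genes shared the same spread trend, with no weight on a gene's own spread. The SE is the absolute log2 fold change over the square root of F. Rule genes stayed in the totals and out of the p-values. The test was tried on simulated counts. Members, gene lists and tests were chosen with earlier results of these data known. The library is the block because each library gives both classes. Named genes are the 15 largest called differences in each direction with at least 50 UMIs, the 3 smallest p per list and direction, and fixed oncogenes and plasma cell regulators; some of them are not reported here. Alternatives changed scaling, test, filter, block, thinning, mark, cell filters and libraries. Promoters are RefSeq windows on GRCm38.p6, and gene positions are from GENCODE vM21.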

Additional observations from a re-analysis of the deposited data

Results flagged for a closer look

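Xbp1 had opposite directions in the tissues: its log2 ratio of mitotic over non-mitotic CPM was 0.031 in the lymph node and below 0 in both bone marrow libraries. This difference was not tested for the single gene beyond the test over all genes, which called none. In the wild-type bone marrow library, which enters no comparison of the report, 20% of the eligible cells (6 of 30) met the mitotic mark. All 6 held a UMI of Dntt, Rag1, Vpreb1 or Igll1, and 5 of them held 2 or more markers of B cells and precursors.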

How the results depend on the processing

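The count of genes called higher in mitotic cells (29) and lower (31), of 2135 tested, moved with most settings. The number of genes tested also differed between many settings, so the counts are not like for like. With DESeq2 2 and 1 of 2135 were called, and with unthinned sums of the same cells 83 and 59 of 4083. At 1000 UMIs the count was 4 and 4 of 940, and at 3000 UMIs 7 and 2 of 2540. With another seed it was 16 and 19 of 2190, and in the held-out UMIs 3 and 0 of 891. With the deepest 10% of cells left out it was 18 and 21 of 1911. Without a filter on low counts it was 23 and 0 of 11176. With no replicate block, that is without pairing the classes of 1 library, it was 11 and 1. Leaving out 1 library gave between 2 and 14 higher genes and between 2 and 10 lower genes. With library totals it was 30 and 21 of 2135, with 3 or more rule genes as the mark 40 and 29 of 1705. Of the 29 higher genes 12 were among those called with the other seed, where H2afx and Tmem97 were among those that did not pass the filter, and of the 31 lower genes 9. Without the filter, 1 gene was called for the difference between tissues in place of 0. The share of mitotic cells in bone marrow 1, bone marrow 2 and lymph node was 39.4%, 39.5% and 31.5% at 1000 UMIs, 73.2%, 82.2% and 68.1% at 3000 UMIs, and 42.8%, 43.1% and 30.8% with 3 or more rule genes. Directions turned at 1000 UMIs for Cyp2b10 (0.15), Eif1a (0.14), Isg20 (0.14), Hsp90b1 (0.055), Itm2b (0.043), Edem1 (0.019) and Nras (-0.031), in the held-out UMIs for Txnip (0.29), Copg1 (-0.39) and Nras (-0.037), and without the filter for Myc (0.015) and Xbp1 (0.032), all log2 fold changes. For each of these the cause was not tested. The mean difference over the libraries in UMIs per cell and in genes per cell stayed above 0 in each alternative run for it. Within a library, UMIs per cell turned in the lymph node without the deepest 10% of cells (4373 against 4517), and genes per cell turned in bone marrow 2 in the held-out UMIs (1223.5 against 1237.5).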
